A study of Mus musculus with 8 samples.

Results

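The cell cycle and proliferation genes described here are 40 named genes that drive, execute or brake cell division. Their transcripts were measured in diaphragm, the sheet of muscle that draws breath, from mice 8 weeks old. The normal group, labelled as control mice for dy/dy, and the dystrophic group, dy/dy mice with a laminin-deficient muscular dystrophy, had 4 Affymetrix expression arrays each, and each array is a pool of 3 diaphragms. The sources used here do not state strain or sex, and pools do not show how far single animals differ. Nothing in the labels says whether the pools were collected on separate occasions, so p-values measure the spread between these pools. A gene was taken from the probe sets whose platform annotation names that gene alone, and where it had several, the one with the highest mean log2 signal stands for it. By this rule 39 of the 40 genes had a probe set, 77 probe sets in all, of 12393 genes with a probe set in the whole table. Ccnb1 matched no probe set under the rule and was not analysed here.

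Cells divide by passing through growth, DNA synthesis and mitosis in order, driven by cyclins that switch on cyclin-dependent kinases (CDKs) and held back by CDK inhibitors. Genes for replication are transcribed mainly around entry into DNA synthesis, and genes for the spindle and for cytokinesis around mitosis. Nuclei of mature muscle fibres do not divide. In injured muscle the dividing cells are satellite cells and their myoblast progeny, fibroblasts, endothelial cells and infiltrating leukocytes. Transcripts made only in dividing cells therefore come from a minority of the nuclei in whole muscle. Some of the genes, such as those of the D cyclins, are also transcribed outside dividing cells. Which nuclei gave the signals was not measured. In pooled muscle fewer cells of a type and less RNA per cell cannot be told apart.

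Lama2, which encodes the laminin chain affected in dy mice, was lower in every dystrophic array (232 to 333) than in every normal array (749 to 982), at a difference of -1.60 log2 units (limma adjusted p = 8.91e-04). Signals here are MAS5 intensities after each array was rescaled to a common trimmed mean, and each log2 difference subtracts the normal mean from the dystrophic mean of log2(signal + 16). Median signals per array lay between 171.7 and 206.7. Normal replicate 4 and dystrophic replicate 3 were the extremes of principal component 1, at -36.1 and 34.0. In dystrophic replicate 3 the summed signal of 9 liver markers was 64372, against 5408 to 8925 in the other dystrophic arrays and 2706 to 5339 in normal arrays. By their poly-A control signals the arrays form 3 spike-in levels, namely replicate 1 of both groups, replicate 3 of both groups, and replicates 2 and 4 of both groups.

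None of the cell cycle genes passed the test. The fit left out the 40% of probe sets with the lowest mean values, and 24 of the 39 genes (61.5%) lay below that filter, against 33.7% of all genes. Among the 15 that were tested limma called 0 at an adjusted p under 0.05. Of all 8214 genes tested, 0.645% were called, 0.597% higher and 0.0487% lower. At an unadjusted p under 0.05 limma gave 1 cell cycle gene higher and 1 lower, where 6.57% of all tested genes were higher and 4.19% lower at that level, 10.8% together. The smallest adjusted p among the 15 was 0.195. For 13 of the 15 the 95% interval of the difference lay between -1 and 1, that is, within a doubling or a halving on this scale. A fit with no filter called 0 of the 39, against 0.323% of all genes, with 5 higher and 1 lower at an unadjusted p under 0.05, against 5.53% and 3.52% of all genes, and its smallest adjusted p was 0.343.

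**Figure D1:**
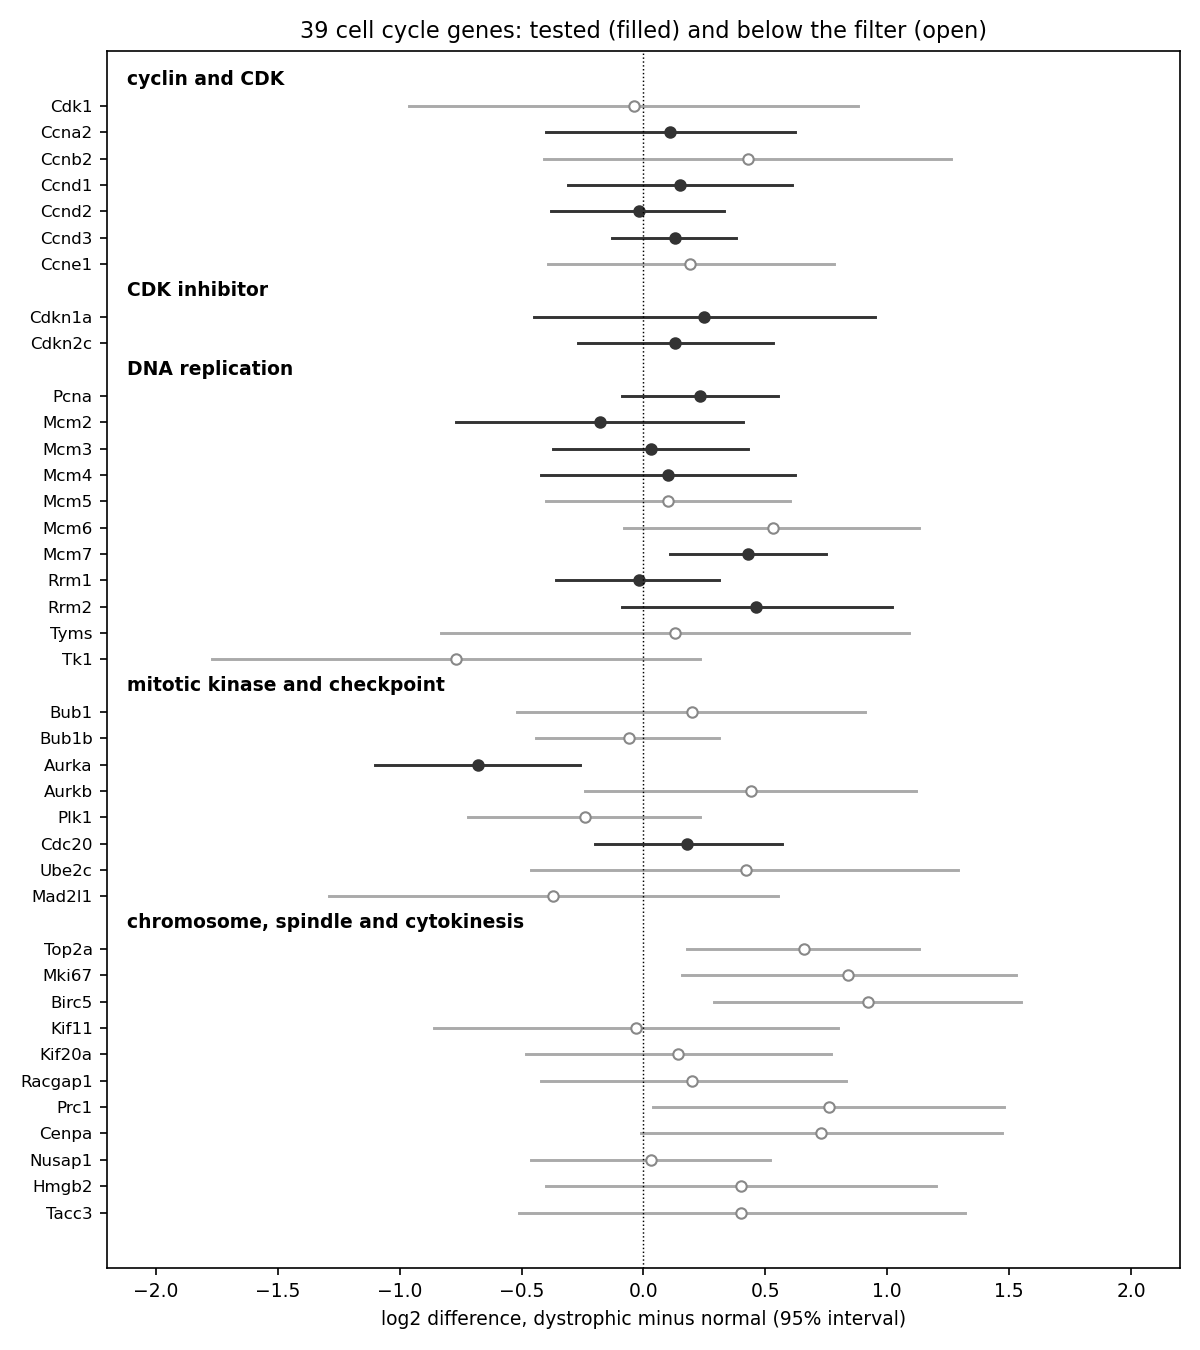
Log2 difference (dystrophic minus normal, x axis) of each of the 39 cell cycle genes, grouped by role, with its 95% interval from limma. Filled points are genes tested in the filtered fit and open points are genes below the filter, with intervals from the fit without a filter. Intervals that exclude 0 are those of Mcm7, Top2a, Mki67, Birc5 and Prc1 on the right and of Aurka on the left, and none of these genes passed after adjustment.

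The differences leaned to the dystrophic side. Of the 39 genes, 29 (74.4%) had a log2 difference above 0, as did 50.5% of all genes, and the median difference was 0.15 (range -0.77 to 0.92) against 0.00 over all genes. Between arrays with like spike-in signal the median was 0.17 for replicate 1, 0.14 for replicate 3 and 0.10 for replicates 2 and 4. Without normal replicate 4 and dystrophic replicate 3 it was 0.17, with 28 genes above 0. In 5 genes, Top2a, Prc1, Birc5, Mcm6 and Mcm7, every dystrophic array lay above every normal array, which is 12.8% of the 39 genes, and this held for 3.92% of all genes. In 1 gene, Aurka, every dystrophic array lay below every normal array (2.56%, against 1.94% of all genes). Of the 24 genes below the filter 18 had a difference above 0, as did 54.5% of all genes below it. Among these 24 genes 4 were separated upward (16.7%), against 2.39% of all genes below the filter. These genes are transcribed together in dividing cells, so they are not independent of each other, and the shares are a description.

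**Figure D2:**
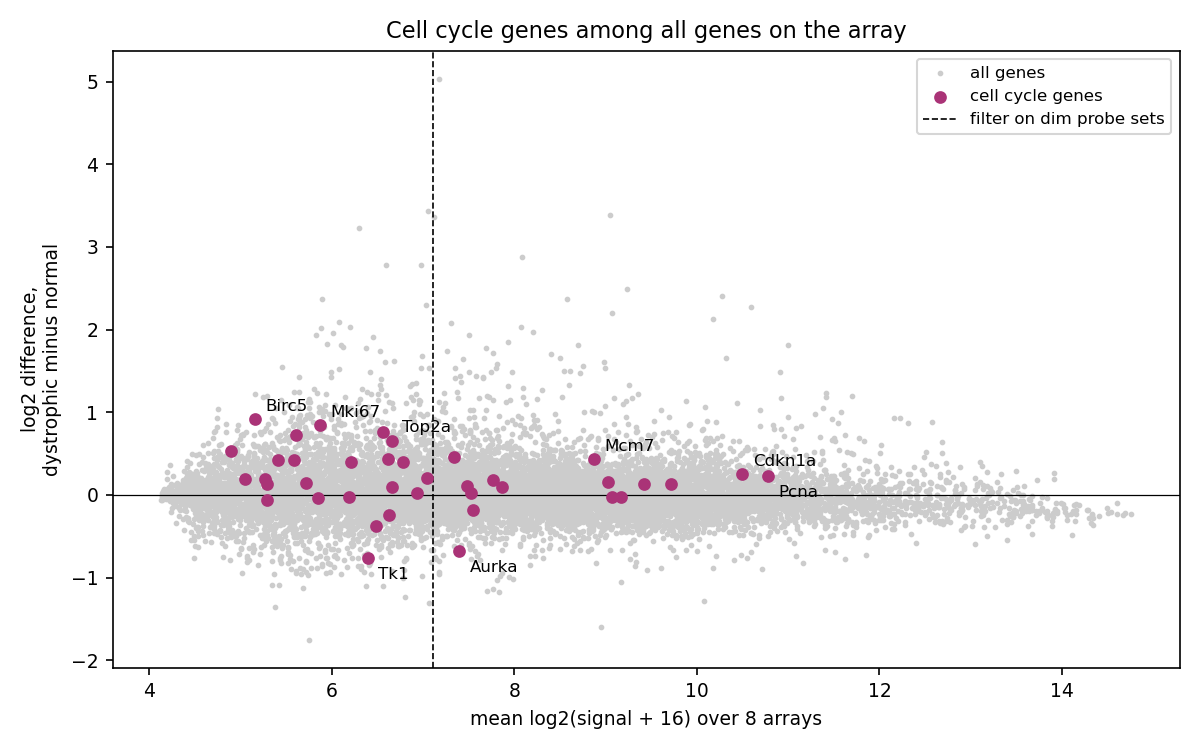
Log2 difference (dystrophic minus normal, y axis) against mean log2(signal + 16) over the 8 arrays (x axis) for all 12393 genes in grey and the 39 cell cycle genes in purple. The dashed line marks the filter, with 24 cell cycle genes on its dim side, and the cell cycle genes span -0.77 (Tk1) to 0.92 (Birc5).

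Genes of chromosomes, the spindle and cytokinesis differed most as a group. All 11 lay below the filter, 10 of the 11 had a difference above 0, and their median difference was 0.40. The median deviation of the 11 from their own means was -0.35, -0.13, -0.31 and -0.11 log2 units in normal replicates 1 to 4. It was 0.26, 0.24, 0.27 and 0.31 in dystrophic replicates 1 to 4. The groups did not overlap in this median, while that of all genes stayed between -0.05 and 0.07 on the same arrays. The median of the DNA replication genes did not overlap either, by a smaller margin. It lay at -0.15 to -0.02 in normal and 0.00 to 0.08 in dystrophic arrays.

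**Figure D3:**
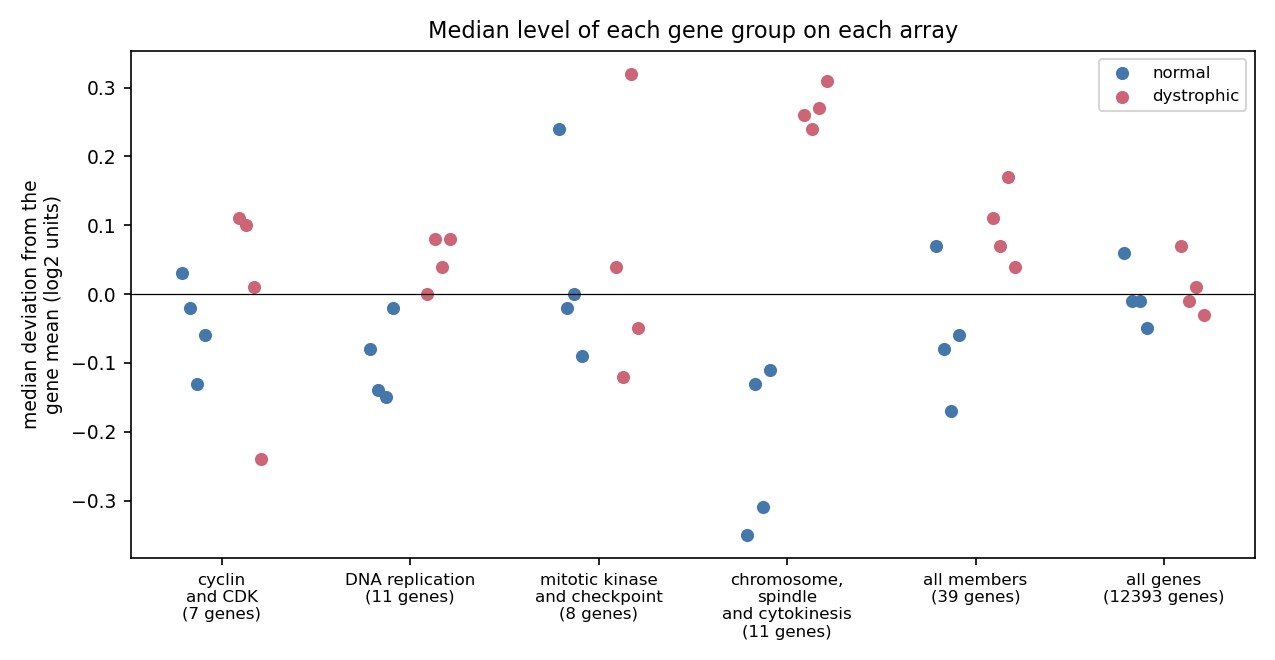
Median deviation from the gene's own mean over 8 arrays (log2 units, y axis) for 4 roles, all 39 cell cycle genes and all genes, with 1 point per array. The chromosome, spindle and cytokinesis genes lie between 0.24 and 0.31 in dystrophic arrays and between -0.35 and -0.11 in normal arrays. The DNA replication genes also separate the groups, by a smaller margin, and in the mitotic kinase group the arrays of both groups are mixed.

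Top2a encodes topoisomerase IIα, which untangles replicated DNA and is made in dividing cells. Its signal was 54.6, 61.6, 73.8 and 69.3 in normal replicates 1 to 4 and 88.8, 139, 112 and 109 in dystrophic replicates 1 to 4. Every dystrophic array lay above every normal one, although all 8 values are dim. The means were 64.8 ± 8.48 and 112 ± 20.7 (SD, n = 4), a ratio of 1.73, with a log2 difference of 0.66 (SE 0.21, 95% interval 0.18 to 1.13, limma without a filter adjusted p = 0.399). Within the spike-in levels the difference was 0.57 for replicate 1, 0.51 for replicate 3 and 0.77 for replicates 2 and 4. A second, dimmer Top2a probe set read 3.41 to 5.85 in normal and 6.82 to 13.1 in dystrophic arrays, also without overlap. Every one of these values lies within the range of the bacterial negative controls over all 8 arrays, whose highest signal was 32.2. That signal was on normal replicate 3, and the highest control on each other array lay between 5 and 24. The range over all arrays is the one used for each gene here.

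Mki67 encodes Ki-67, the nuclear protein used as the standard stain for dividing cells. Its signal was 14.4, 31.9, 56.8 and 18.0 in normal replicates 1 to 4 and 50.4, 87.2, 48.1 and 69.5 in dystrophic replicates 1 to 4. The means were 30.3 ± 19.2 and 63.8 ± 18.3 (SD, n = 4), and normal replicate 3 overlapped the lower dystrophic arrays. The log2 difference was 0.84 (SE 0.31, 95% interval 0.16 to 1.53, limma without a filter adjusted p = 0.501). It was 1.13 between the replicate 1 arrays, 1.22 among replicates 2 and 4, and -0.19 between the replicate 3 arrays. In 3 of the 8 arrays the signal lay within the range of the negative controls.

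Birc5 encodes survivin, a subunit of the chromosomal passenger complex that guides chromosome alignment and cytokinesis. The normal arrays read 12.1, 11.3, 13.0 and 4.87 and the dystrophic arrays 15.5, 32.4, 29.8 and 68.3. The groups did not overlap, but 6 of the 8 values lie within the range of the negative controls over all arrays. The highest control on the same array was 5 to 12.2 in dystrophic and 6.7 to 32.2 in normal replicates. The log2 difference was 0.92 (SE 0.28, 95% interval 0.29 to 1.55, limma without a filter adjusted p = 0.377), the largest of the 39 genes, and it depends on the offset, being 1.62 with an offset of 1 and 0.41 with an offset of 64. The dystrophic mean was 36.5 ± 22.5 (SD, n = 4), and its highest array, dystrophic replicate 4, was 68.3.

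Prc1 encodes a microtubule-bundling protein of the central spindle. Its signal was 20.0, 83.4, 73.5 and 71.8 in normal replicates 1 to 4 and 121, 107, 108 and 95.4 in dystrophic replicates 1 to 4. All dystrophic arrays lay above all normal ones, and normal replicate 1 lay far below the other 3. The log2 difference was 0.76 (SE 0.32, 95% interval 0.04 to 1.48, limma without a filter adjusted p = 0.598), and 0.42 without normal replicate 1. Its second probe set, at a difference of 0.66, overlapped between the groups.

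The other 7 genes of this role overlapped between the groups. Cenpa, the histone H3 variant of centromeres, read 6.14 to 41.4 in normal and 35.0 to 65.0 in dystrophic arrays, a difference of 0.73. Hmgb2, a chromatin protein abundant in dividing cells, was at 0.40, and Tacc3, a spindle protein, was also at 0.40. Racgap1, needed for cytokinesis, was at 0.20, the mitotic kinesin Kif20a at 0.14 and the spindle protein Nusap1 at 0.03, with its second probe set at -0.28. Kif11, the kinesin that pushes spindle poles apart, was at -0.03 on its representative probe set, and its other 2 probe sets were at 0.00 and 0.76.

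**Figure D4:**
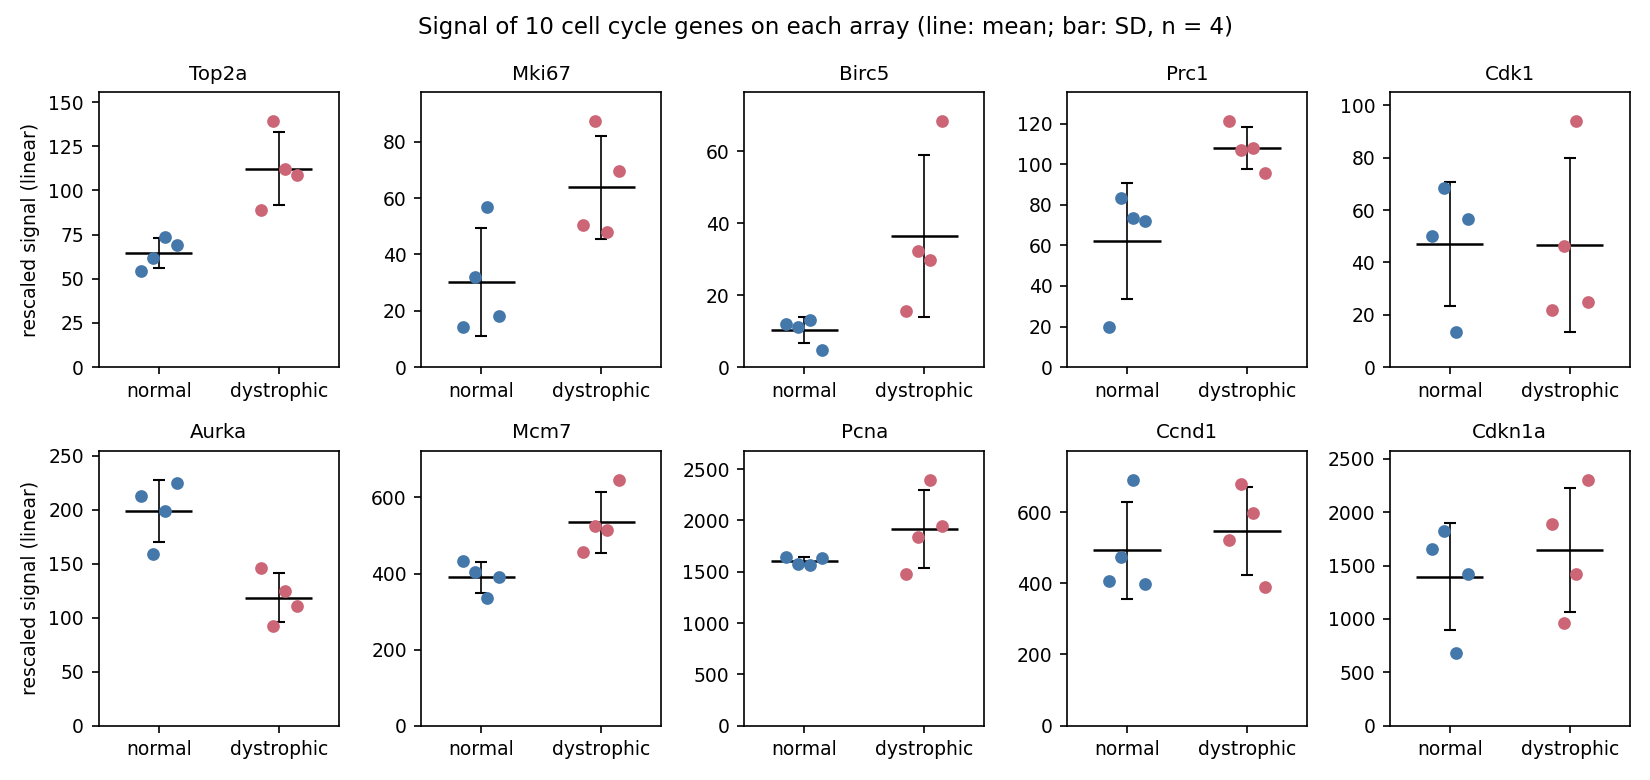
Rescaled signal (linear scale from 0, y axis) of 10 cell cycle genes on each array, with normal arrays in blue and dystrophic arrays in red, the mean as a line and the SD as a bar (n = 4). Groups do not overlap in Top2a, Birc5, Prc1, Aurka and Mcm7, while Mki67, Cdk1, Pcna, Ccnd1 and Cdkn1a overlap.

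Promoters of genes of this kind are known for CCAAT boxes, which bind the factor NF-Y. They are also known for the cell cycle homology region (CHR), whose letters are TTTGAA. It is bound by complexes that regulate these genes over the cell cycle. The 250 bases before the start are shown for Top2a and Prc1, which were separated upward, for Mki67, the standard marker, and for Aurka, which was separated downward. They come from RefSeq on build GRCm38.p6, for the first start listed for each gene, and read 5′ to 3′ on the gene's strand. They lie at chr11:99024190-99024439 (Top2a, minus strand), chr7:80294201-80294450 (Prc1, plus strand), chr7:135716380-135716629 (Mki67, minus strand) and chr2:172370571-172370820 (Aurka, minus strand). Capitals mark CCAAT and TTTGAA on either strand.
Top2a: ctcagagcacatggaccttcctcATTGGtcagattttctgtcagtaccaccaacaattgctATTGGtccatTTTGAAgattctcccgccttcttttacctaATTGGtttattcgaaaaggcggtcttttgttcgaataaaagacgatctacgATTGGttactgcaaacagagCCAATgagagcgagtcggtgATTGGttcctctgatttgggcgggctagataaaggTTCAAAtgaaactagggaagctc
Prc1: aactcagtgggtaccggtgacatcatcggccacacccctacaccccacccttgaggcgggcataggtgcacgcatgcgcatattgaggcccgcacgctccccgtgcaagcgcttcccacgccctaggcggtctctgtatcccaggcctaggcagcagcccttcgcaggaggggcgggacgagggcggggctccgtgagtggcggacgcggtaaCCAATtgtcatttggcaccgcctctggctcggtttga
Mki67: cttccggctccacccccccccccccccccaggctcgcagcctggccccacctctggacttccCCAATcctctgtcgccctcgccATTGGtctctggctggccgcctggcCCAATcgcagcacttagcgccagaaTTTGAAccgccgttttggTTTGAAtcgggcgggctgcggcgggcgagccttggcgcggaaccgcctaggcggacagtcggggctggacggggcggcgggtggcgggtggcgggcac
Aurka: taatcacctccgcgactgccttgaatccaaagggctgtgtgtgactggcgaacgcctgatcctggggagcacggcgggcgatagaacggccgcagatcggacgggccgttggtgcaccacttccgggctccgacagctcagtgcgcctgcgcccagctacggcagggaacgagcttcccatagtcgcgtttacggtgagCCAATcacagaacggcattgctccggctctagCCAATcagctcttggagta
The Top2a window held 6 CCAAT and 2 TTTGAA matches, that of Mki67 3 and 2, that of Prc1 1 CCAAT, and that of Aurka 2 CCAAT. In Prc1 a TTTGAA began 5 bases before the start and ran across it, and in Aurka one began at base 33 of the transcript, outside the window.

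Of the 34 cell cycle genes with an entry in the promoter table, 24 (70.6%) held CCAAT on either strand in the 250 bases before the start, against 34.5% of 27025 genes. TTTGAA was present in 9 (26.5%), against 16.3%. All 9 also held CCAAT, so 26.5% of the 34 held both motifs, against 5.7% of all genes. Among the 33 that also had a probe set, the 9 with both motifs had differences from -0.18 to 0.84, with a median of 0.40 and 6 above 0. The other 24 ranged from -0.77 to 0.92, with a median of 0.16 and 18 above 0. The ranges overlapped, and a match in these letters is a description of the sequence and not of binding.

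Mitotic kinases and checkpoint genes were mixed, with 4 of 8 above 0 and a median difference of 0.06. Aurka encodes Aurora A, the kinase that matures centrosomes and builds the spindle, and it had the smallest p of the 15 tested genes. Its signal was 213, 159, 199 and 225 in normal replicates 1 to 4 and 146, 92.3, 125 and 111 in dystrophic replicates 1 to 4. Every dystrophic array lay below every normal one. The means were 199 ± 28.9 and 119 ± 22.6 (SD, n = 4), with a log2 difference of -0.68 (SE 0.19, 95% interval -1.10 to -0.26, limma adjusted p = 0.195). It was -0.50 for replicate 1, -0.60 for replicate 3 and -0.81 for replicates 2 and 4, so its sign was the same at each spike-in level. No alternative brought it past the threshold, with adjusted p between 0.120 and 0.542. Aurka had 1 probe set, so no second reading was available from these arrays.

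The other 7 genes of that role overlapped. Aurkb, the Aurora kinase of the passenger complex that also holds survivin, read 38.9 to 131 in normal and 84.9 to 115 in dystrophic arrays, a difference of 0.44. Plk1, the polo kinase of mitotic entry, was at -0.24. Cdc20, the activator of the ligase that starts anaphase, was at 0.18 (limma adjusted p = 0.801), with 239, 237 and 238 in dystrophic replicates 1 to 3 and 161 in replicate 4. Ube2c, the ubiquitin-conjugating enzyme of that ligase, was at 0.42, with 5 of 8 values within the range of the negative controls. Of the checkpoint proteins, Bub1 was at 0.20, with 7 of 8 values within that range. Bub1b was at -0.06 and Mad2l1 at -0.37, the last with 13.8 in dystrophic replicate 1 against 71.6 to 106 in the other dystrophic arrays. All 8 arrays of Bub1b, at 19.1 to 28.7, lay within the range of the negative controls over all arrays. In normal replicates 2 and 3 Bub1b also lay under the highest control on its own array, and on the other arrays above it.

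Of the 11 DNA replication genes 7 were tested. Of the 11, 8 had a difference above 0 and the median was 0.10. Pcna, the sliding clamp that holds DNA polymerase on its template, read 1645, 1578, 1567 and 1635 in normal replicates 1 to 4 and 1474, 1838, 2394 and 1947 in dystrophic replicates 1 to 4. The normal arrays were close together, and 3 dystrophic arrays lay above and 1 below all of them. The means were 1607 ± 39.5 and 1913 ± 379 (SD, n = 4), a log2 difference of 0.23 (SE 0.15, 95% interval -0.09 to 0.55, limma adjusted p = 0.675), and 0.11 without dystrophic replicate 3. Between the replicate 1 arrays it was -0.16, between the replicate 3 arrays 0.61, and among replicates 2 and 4 it was 0.23.

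Mcm7 belongs to the ring-shaped helicase that opens DNA for replication, and its probe sets disagreed. On the brightest, 1438320_s_at, the signal was 433, 403, 336 and 390 in normal replicates 1 to 4 and 456, 524, 514 and 646 in dystrophic replicates 1 to 4. All dystrophic arrays lay above all normal ones, with a log2 difference of 0.43 (SE 0.15, 95% interval 0.11 to 0.75, limma adjusted p = 0.317). On 1416030_a_at the signal was 348, 343, 427 and 332 in normal and 254, 273, 294 and 308 in dystrophic replicates 1 to 4. There every dystrophic array lay below every normal one, with a difference of -0.34. The other 2 Mcm7 probe sets were at 0.13 and 0.34 and overlapped between the groups. In Affymetrix names the suffix _s marks probes that can match transcripts of more than one gene, and _a marks probes that match several transcripts of the same gene. The mean over all 4 probe sets was at 0.14 (limma adjusted p = 0.754).

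Rrm2, the small subunit of the ribonucleotide reductase that makes DNA precursors, read alike on its 3 probe sets, and it is described after its values were seen. The brightest, 1416120_at, read 99.8, 129, 120 and 144 in normal replicates 1 to 4 and 106, 157, 267 and 206 in dystrophic replicates 1 to 4, a difference of 0.46 (limma adjusted p = 0.597). Only dystrophic replicate 1 fell within the normal range there. On 1434437_x_at the normal arrays lay at 105 to 130 and the dystrophic at 136 to 163, a difference of 0.35. On 1448226_at they lay at 33.3 to 52.9 and 70.4 to 126, a difference of 0.88. Neither of these 2 overlapped between the groups. Over all 77 probe sets of the cell cycle genes 10.4% were separated upward and 2.60% downward, against 3.16% and 1.94% of all probe sets that are not controls. Rrm1, the large subunit, was at -0.02 (limma adjusted p = 0.981), with 502 to 673 in normal and 460 to 681 in dystrophic arrays.

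**Figure D5:**
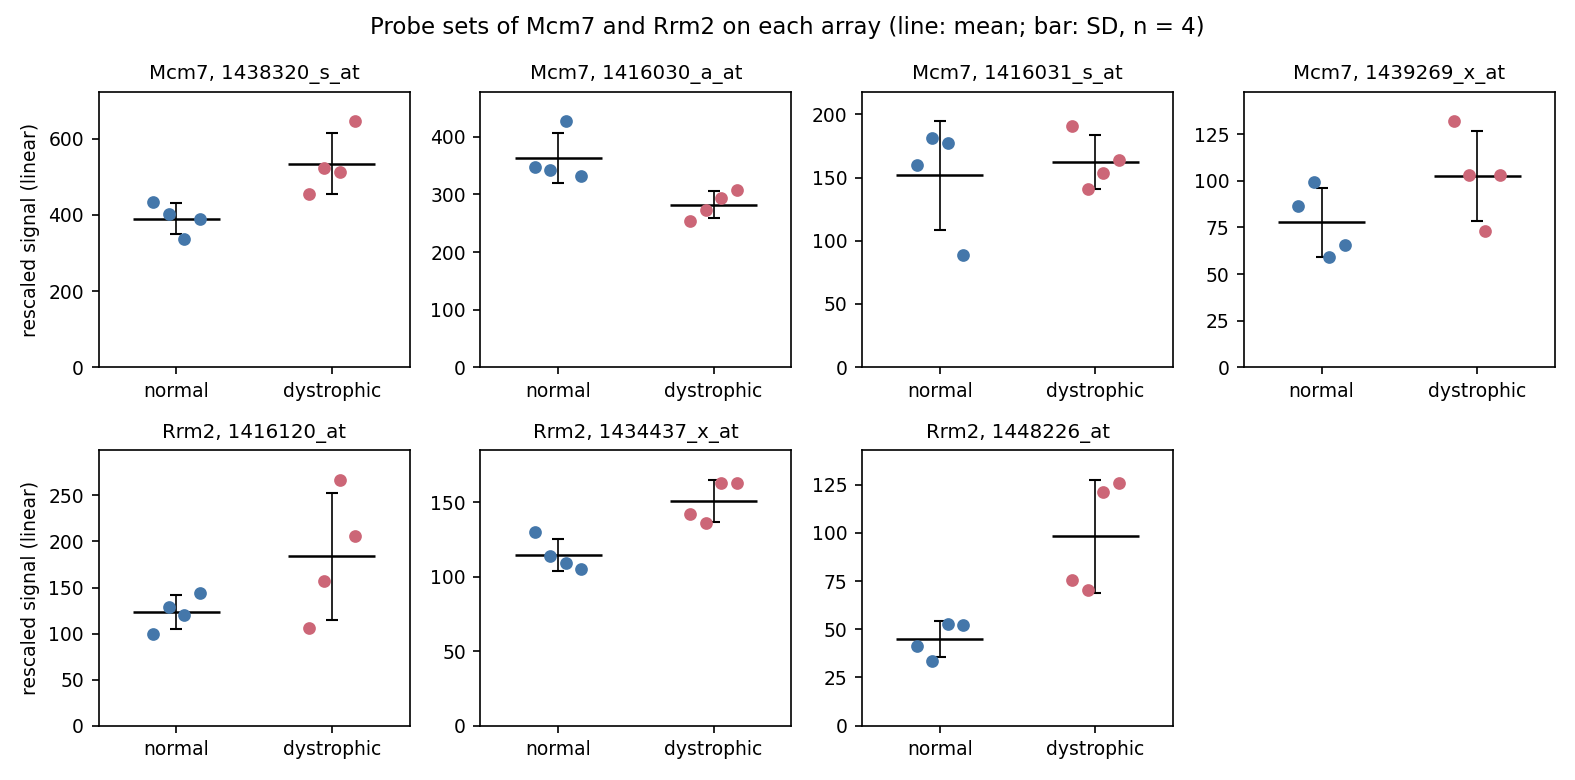
Rescaled signal (linear scale from 0, y axis) on each array for the 4 probe sets of Mcm7 (top) and the 3 of Rrm2 (bottom), with the mean as a line and the SD as a bar (n = 4). The first 2 Mcm7 probe sets separate the groups in opposite directions, and the 3 Rrm2 probe sets all have higher means in dystrophic arrays.

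The other helicase subunits did not separate the groups, except Mcm6. Mcm2 was at -0.18, Mcm3 at 0.03, Mcm4 at 0.10 and Mcm5 at 0.10, and Mcm2 was brightest in normal replicate 3, at 326. Mcm6 read 7.31 to 10.3 in normal and 10.3 to 49.4 in dystrophic arrays, a difference of 0.53, with 7 of the 8 values within the range of the negative controls. The other 4 probe sets of Mcm3 lay between -0.58 and 0.45. Tyms, thymidylate synthase, was at 0.13 and overlapped, with 5 of 8 values within the range of the negative controls. Its other 2 probe sets were at -0.64 and -0.16, with all 8 values of each within that range. Tk1, the thymidine kinase of dividing cells, had the lowest difference of the 39 genes, at -0.77. Its normal arrays read 221, 66.6, 33.4 and 136 and its dystrophic arrays 33.9, 53.2, 38.0 and 77.7. The normal arrays were so spread that all 4 dystrophic values fell inside their range.

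Cyclins and CDKs gave no separation between the groups. Cdk1, the kinase of mitotic entry, read 50.0, 68.5, 13.3 and 56.5 in normal replicates 1 to 4 and 22.0, 46.1, 93.8 and 25.0 in dystrophic replicates 1 to 4. Its log2 difference was -0.04 (SE 0.42, 95% interval -0.96 to 0.88, limma without a filter adjusted p = 0.993), and ranged from -0.37 to 0.16 as single arrays were left out. It was -0.80 between the replicate 1 arrays, 1.91 between the replicate 3 arrays and -0.63 among replicates 2 and 4. The interval is wide enough to hold a change near 2-fold either way, and 3 of 8 Cdk1 values lay within the range of the negative controls. Ccna2, the cyclin of DNA synthesis, was at 0.11 (limma adjusted p = 0.930), with 114 to 228 in normal and 141 to 236 in dystrophic arrays. The mitotic cyclin Ccnb2 was at 0.43, with 12.4 to 34.5 in normal and 63.5, 14.3, 82.0 and 24.7 in dystrophic replicates 1 to 4. For Ccnb2 5 of 8 values lay within the range of the negative controls. Ccne1, the cyclin of entry into DNA synthesis, was at 0.19, with 7 of 8 values within the range of the negative controls.

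The D cyclins link growth signals to the cycle and are also made outside dividing cells, and each had a probe set above the filter. Ccnd1 read 405, 474, 690 and 399 in normal replicates 1 to 4 and 521, 680, 596 and 390 in dystrophic replicates 1 to 4. Normal replicate 3 was the highest array and dystrophic replicate 4 the lowest, so the groups overlapped throughout. The difference was 0.15 (SE 0.21, 95% interval -0.31 to 0.61, limma adjusted p = 0.874). With single arrays left out it ranged from 0.04 without dystrophic replicate 2 to 0.32 without normal replicate 3. It was also 0.08 and 0.07 without normal replicates 1 and 4, 0.10 without dystrophic replicate 3 and 0.30 without dystrophic replicate 4. The further Ccnd1 probe sets were at 0.04 and 0.28 and overlapped as well. Ccnd2 was at -0.02 (95% interval -0.38 to 0.33, limma adjusted p = 0.981), and its other 6 probe sets lay between -0.52 and 0.15. Ccnd3, which is retained in differentiating muscle, read 750 to 843 in normal and 819 to 926 in dystrophic arrays, a difference of 0.13 (95% interval -0.13 to 0.38, limma adjusted p = 0.784).

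Both CDK inhibitors were tested and neither passed. Cdkn1a encodes p21, which stops the cycle after DNA damage and when myoblasts differentiate. Its signal was 1653, 1828, 682 and 1424 in normal replicates 1 to 4 and 1893, 963, 1418 and 2302 in dystrophic replicates 1 to 4. The groups overlapped widely. The log2 difference was 0.25 (SE 0.32, 95% interval -0.45 to 0.95, limma adjusted p = 0.860), and it was -0.06 without normal replicate 3. A second, dimmer Cdkn1a probe set was at 0.51 and also overlapped, at 9.65 to 334 in normal and 17.0 to 373 in dystrophic arrays. Cdkn2c encodes p18, an inhibitor of the CDKs that partner D cyclins, and was at 0.13 (95% interval -0.27 to 0.53, limma adjusted p = 0.878), with normal replicate 1, at 907, the highest array.

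Other genes of the pathway were read from 3 lists, and limma called 0 of their 52 tested members. Of 20 further tested genes of growth and DNA synthesis, 0 were higher and 1 lower at an unadjusted p under 0.05, and 18 of 39 with a probe set had a difference above 0. Without a filter 3 of the 39 were higher and 1 lower at that level, and 2 were separated upward, against 3.92% of all genes. Over all genes the shares at that level were 6.57% higher and 4.19% lower when tested, and 5.53% and 3.52% without a filter. The lower one was Gmnn, geminin, the inhibitor of replication licensing, which read 244, 351, 320 and 367 in normal and 129, 276, 191 and 232 in dystrophic replicates 1 to 4, a difference of -0.62 (SE 0.22, limma adjusted p = 0.360). E2f3, at -0.53 (adjusted p = 0.590), and Orc2, at -0.28 (adjusted p = 0.622), followed it by size of p. Of 16 tested genes of mitosis 2 were higher at an unadjusted p under 0.05 and 0 lower, and 23 of 40 with a probe set lay above 0. These counts were also 2 and 0 without a filter. The 2 higher genes were Cks1b, a CDK-binding subunit, at 0.74 (SE 0.22, limma adjusted p = 0.228), and Kif22, a chromosome-binding kinesin, at 0.50 (adjusted p = 0.468). Kif2c, a kinesin that takes microtubules apart, was at 0.49 (adjusted p = 0.539). The medians of the 2 lists, -0.03 and 0.06, lay near that of all genes.

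Among 16 tested brakes and quiescence genes limma called 0, with 2 higher and 1 lower at an unadjusted p under 0.05, with or without the filter. At that level 6.57% of all tested genes were higher and 4.19% lower. Gadd45a, a stress-induced growth arrest gene, read 183, 242, 194 and 223 in normal replicates 1 to 4 and 307, 332, 347 and 435 in dystrophic replicates 1 to 4. The groups did not overlap, and the log2 difference was 0.71 (SE 0.16, limma adjusted p = 0.0979). Ccng1, cyclin G1, a target of p53, read 7227 to 10536 in normal and 6395 to 7206 in dystrophic arrays, also without overlap but in the other direction, with a difference of -0.39 (SE 0.14, limma adjusted p = 0.349). Btg1, an antiproliferative gene, was at 0.46 (SE 0.19, limma adjusted p = 0.462).

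Of the cell types that can divide or enter injured muscle, only macrophages and fibroblasts had summed marker signals that separated the groups on the same arrays. All 15 macrophage markers had a difference above 0 and 5 of 14 tested were called higher, and their summed signal was 7844 to 10360 in normal and 13480 to 16258 in dystrophic arrays. For 11 fibroblast markers 4 were called higher, and the sums were 30721 to 38538 and 46719 to 58983. Of 8 tested markers of myogenic precursors and new fibres 5 were called higher, and their sums overlapped, at 12484 to 18568 and 15974 to 18294. Des alone had means of 12653 in normal and 11924 in dystrophic arrays, so these sums mainly follow Des. Taken singly, 6 of the 11 markers with a probe set were separated upward, against 3.92% of all genes. In that list Myh3, Mymk, Myh8, Myog, Ncam1 and Chrna1 had differences of 1.18 to 5.03. The rest were Pax7 at 0.16, Myf5 at -0.26, Myod1 at 0.18, Cdh15 at 0.17 and Des at -0.07. Endothelial markers had 0 of 10 called by limma and 3 lower at an unadjusted p under 0.05, with sums of 7327 to 8458 and 5884 to 7950. For T and B lymphocytes (1003 to 3338 and 1132 to 3680), neutrophils (832 to 1491 and 763 to 1528), erythroid cells (2831 to 4843 and 3384 to 4187) and adipocytes (7454 to 12346 and 8250 to 11817) the sums overlapped and limma called 0 markers. Few lymphocyte, neutrophil and erythroid markers were above the filter, namely 3 of 11, 3 of 9 and 2 of 6, while 4 of 5 adipocyte markers were. Of the markers above the filter in these 4 lists, 0 had an unadjusted p under 0.05. Without a filter 1 erythroid marker was higher and 1 adipocyte marker lower at that level. Of 7 tested liver markers limma called 0, with 3 higher at an unadjusted p under 0.05. Mature fibre markers, at 185423 to 283290 and 185766 to 209998, were present in every array and limma called 0 of 11, also at an unadjusted p under 0.05. No marker had a signal of 0, and the part of these cell types in the cell cycle values was not tested.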

How the data were processed

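The values the authors deposited are linear signal intensities from MAS5, per the submitters' processing notes, with no version or detection calls given. Their 2% trimmed mean was 400.2 on normal replicate 4 and 500.2 on the other 7 arrays, so all were rescaled to 487.7. Of 22690 probe sets, 64 are controls. Of the rest 20380 had 1 gene symbol, 691 several and 1555 none, and 20351 were updated through Entrez identifiers to a RefSeq table of GRCm38.p6.

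Controls and the lowest 40% of probe sets by mean log2(signal + 16) were left out, which left 13575. The fit used lmFit and eBayes with its trend option (limma 3.58.1, R 4.3.3). P-values were adjusted by Benjamini-Hochberg over all 13575, and the threshold was 0.05. Genes below the filter have intervals and p from the same fit without a filter. Plots used Python 3.11.15 and matplotlib 3.10.9. The 4 arrays per group limit the precision, and a ratio of dim MAS5 values is imprecise.

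The members, roles, lists and alternatives were chosen with earlier results of these data known. Statistics are given for each member with an unadjusted p under 0.05 with or without the filter, and for Mki67, Top2a, Pcna, Cdk1, Cdkn1a and Ccnd1 whatever their values. From each list of other pathway genes the called ones are named or, with none called, the 3 with the smallest p. Other settings tried were a smaller and a larger offset (1 and 64), the signals without rescaling, a shift by the 75th percentile, quantile normalization, a 60% filter or none, fits with array weights, with robust variances or with no trend, blocks for replicate number or spike-in level, arrays left out, averaged probe sets per gene, and a threshold of 0.01.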

Additional observations from a re-analysis of the deposited data

Results flagged for a closer look

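In 4 of 78 groups of 4 arrays (39 genes, normal and dystrophic) a single array stood apart from the other 3 by Dixon's criterion on the log2 scale, and chance alone flags about 1 in 20 groups. Cdkn2c read 907 in normal replicate 1, against 558 to 593 in the other normal arrays. Cdc20 read 161 in dystrophic replicate 4, against 237 to 239 in the others. Prc1 read 20.0 in normal replicate 1, against 71.8 to 83.4, and Nusap1 read 79.1 in normal replicate 3, against 114 to 118.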

How the results depend on the processing

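Limma called 0 of the cell cycle genes under every alternative run, including a threshold of 0.01. Most of these runs left out the 24 genes below the filter, so those genes could not be called there. They could be called only with no filter or, where they passed its own filter, with averaged probe sets. The median difference of the 39 genes stayed between 0.11 and 0.23, the same range as when single arrays were left out. It moved from 0.15 by no more than 0.08, the SD between arrays of the genes' median deviation. The number above 0 was 27 after quantile normalization, 33 on the values as deposited, where the median of all genes was 0.07, and 27 to 31 with single arrays left out. The arrays were not treated as paired, since the labels name no pairing and not every same-numbered pair correlated above 0.1 in its deviations from the group means. The correlations were 0.484, -0.046, 0.145 and 0.133 for replicates 1 to 4, that of replicate 1 being the highest of all 16 pairs, and normal replicates 2 and 4 correlated best with another number. With the replicate block the median was 0.15, with 29 genes above 0 and 0 called. The Cdkn1a difference ranged from -0.06 to 0.48 with single arrays left out, and was below 0 without normal replicate 3. Among brakes and quiescence genes 1, Gadd45a, was called when the probe sets of each gene were averaged. Birc5 was at 1.62 with an offset of 1 and 0.41 with 64, and Top2a at 0.45 with 64. With 24 of 39 genes below the filter, the low signal of most cell cycle genes limits what 4 arrays per group can show.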
